A study of Homo sapiens with 22 samples.

Results

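FOXA1, FOXA2 and FOXA3 encode the FOXA group of forkhead transcription factors, and the regions of enrichment around the 3 genes themselves are described here. A region was a member when it overlapped the gene body (GENCODE, hg19) or the 50 kb on either side. Of 871377 regions in 22 lists, 229 were members, with 129 at FOXA1, 74 at FOXA2 and 26 at FOXA3. The FOXA2, JUN and FOSL1 lists, 18 in number and called factor lists below, held 106 of them: 74 at FOXA1, 32 at FOXA2 and 0 at FOXA3.

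FOXA proteins are pioneer factors: they bind forkhead sequences in compacted chromatin and can make the DNA open to other factors. FOXA1 works with the androgen receptor in luminal prostate cells, FOXA2 is expressed in endodermal development and in androgen receptor-independent prostate tumours, and FOXA3 is best known from the liver. FOXA factors are known to bind near FOXA genes, their own included. JUN and FOSL1 are subunits of the AP-1 dimer.

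The study asked where FOXA2 binds in prostate cancer cells and how JUN binding depends on it. PC3 cells lack the androgen receptor and neuroendocrine features, and NCI-H660 cells are neuroendocrine. LNCaP cells, from an adenocarcinoma, express the androgen receptor and no FOXA2 protein of their own. FOXA2 ChIP lists came from PC3 cells given vehicle, 10 μM ORY-1001 or 0.5 μM C12 for 4 h, and from NCI-H660 cells given vehicle or 10 μM ORY-1001 for 4 h, both agents being inhibitors of the demethylase LSD1. A further 2 FOXA2 lists of vehicle PC3 cells carry no antibody label, and 1 FOXA2 list came from LNCaP_FOXA2OE cells. JUN lists came from PC3 and NCI-H660 cells with a negative control siRNA (siNC) or siFOXA2, from LNCaP cells with siNC or siFOXA1, and from vehicle-labelled LNCaP_FOXA2OE and LNCaP_FOXA2K265R cells. FOSL1 was mapped in PC3 cells with siNC or siFOXA2, open chromatin by ATAC in vehicle PC3 and NCI-H660, H3K27ac in vehicle PC3 and H3K4me2 in vehicle NCI-H660. The LNCaP lines expressed FOXA2, or its K265R mutant, from a lentiviral tagged coding sequence, and the FOXA2K265R sample carries the cell line label of the FOXA2OE line. The knockdowns cannot be checked in region lists.

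Apart from the PC3 FOXA2 lists without an antibody label, each group had 1 list. No test between conditions was therefore made, and every difference below is between lists. The lists ran from 1538 to 210960 regions, and the sequencing depth behind them is unknown. Intervals are 95% intervals and cover counting error only. The score of a region, taken here as 10 times the −log10 of the q value of its enrichment, was absent from 2 lists, and scores depend on depth, so ranks within a list are given beside them. As a check of the lines, the ATAC lists held a region within 1 kb of the start sites of 7 of 7 neuroendocrine marker genes in NCI-H660 and 5 of 7 in PC3, where CHGA and NEUROD1 had none. Of all protein-coding genes, 74.4% and 77.3% had one in NCI-H660 and PC3, so these counts say little of the lines. KLK3, the gene of prostate-specific antigen, had none in either line. All 6 mesenchymal or stem cell-like markers were open in both lines and so did not tell them apart. Each treated list and its control came from the same folder in the region names, whereas the PC3 lists without an antibody label came from another. The ATAC lists of PC3 and NCI-H660 came from different folders, as did their JUN lists, so line and folder cannot be told apart there. In PC3 the vehicle FOXA2 and siNC JUN lists also came from different folders.

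The main FOXA2-bound DNA at these genes is shown first, because the results return to it. Each sequence is 200 bases of hg19, plus strand, centred on a vehicle FOXA2 region. Capitals mark matches on either strand to a forkhead word (TATTTAC or else TATTTAT or else TATTTGC or else TATTTGT or else TGTTTAC or else TGTTTAT or else TGTTTGC or else TGTTTGT) or to an AP-1 word (TGACTCA or else TGAGTCA). Matches of the same or different words may overlap and were all counted. The highest-scoring PC3 region at FOXA1 lay in an intron of TTC6, 46.0 kb upstream of the FOXA1 start site, and was listed in NCI-H660 too. The next set of letters is the strongest site at FOXA2 in PC3, which covers the start of the long non-coding RNA gene LINC00261, 5.8 kb downstream of the FOXA2 start site. The remaining 2 are PC3 regions 6.4 kb and 28.1 kb downstream of the FOXA1 start site, shown because FOXA2 stayed listed there under both inhibitors.
TTC6 intron, FOXA1 locus, chr14:38110403-38110602: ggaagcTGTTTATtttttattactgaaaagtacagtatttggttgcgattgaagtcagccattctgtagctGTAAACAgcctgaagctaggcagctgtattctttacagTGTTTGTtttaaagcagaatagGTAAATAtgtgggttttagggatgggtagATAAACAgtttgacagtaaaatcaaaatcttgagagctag
LINC00261 start, FOXA2 locus, chr20:22559321-22559520: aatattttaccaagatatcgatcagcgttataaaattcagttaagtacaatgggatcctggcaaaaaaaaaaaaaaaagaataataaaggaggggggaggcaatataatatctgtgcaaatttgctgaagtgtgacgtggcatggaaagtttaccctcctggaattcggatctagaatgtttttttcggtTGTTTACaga
6.4 kb downstream, FOXA1 locus, chr14:38057933-38058132: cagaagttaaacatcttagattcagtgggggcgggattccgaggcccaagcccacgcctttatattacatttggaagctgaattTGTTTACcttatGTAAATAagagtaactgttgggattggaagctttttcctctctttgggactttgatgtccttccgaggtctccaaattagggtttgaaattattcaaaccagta
28.1 kb downstream, FOXA1 locus, chr14:38036265-38036464: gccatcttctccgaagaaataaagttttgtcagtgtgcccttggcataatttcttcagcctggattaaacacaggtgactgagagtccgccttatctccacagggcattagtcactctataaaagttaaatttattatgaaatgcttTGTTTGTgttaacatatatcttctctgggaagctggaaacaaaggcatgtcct

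The TTC6 window holds 5 forkhead words and no AP-1 word. At least 5 forkhead words stood in 0.861% of all 24038 windows of the PC3 vehicle FOXA2 list, and at least 1 in 77.2%. The window centred on the NCI-H660 region at this place, shifted by a few bases, holds 4, and 3.59% of that list's windows held at least 4. The strongest NCI-H660 site at FOXA1 lies 48.2 kb downstream at a coding exon of MIPOL1 in a window that touches annotated untranslated sequence, so only its 2 forkhead words with 10 bases on either side are given.
MIPOL1 exon, first word, chr14:38016234-38016260: tcaacactgtGTAAACAccaaagcctt
MIPOL1 exon, next word, chr14:38016257-38016283: ccttaacttaGCAAACAgttgttagaa

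At the FOXA1 locus (chr14:38008757-38115264, gene on the minus strand) FOXA2 was listed in every FOXA2 list of PC3 and NCI-H660, and the vehicle lists of the 2 lines met at a pair of places. The PC3 vehicle list held 5 regions there (Poisson interval 1.62 to 11.7), a density of 46.9 per Mb against 8.41 per Mb over the genome. The NCI-H660 vehicle list held 2 (0.242 to 7.22), or 18.8 per Mb against 4.16. Of 20136 protein-coding genes, 5.98% had at least 5 PC3 FOXA2 regions within 50 kb and 13.8% had at least 2 in NCI-H660, and 54.1% and 37.6% had at least 1.

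The MIPOL1 exon site (chr14:38015982-38016435 in PC3) lies in a gene that shares the FOXA1 neighbourhood with TTC6, a stretch in which rearrangements near FOXA1 are known in prostate cancer. Its FOXA2 score was 573 in vehicle PC3, 604 with ORY-1001 and 261 with C12. The PC3 lists without an antibody label gave it 1557 and 1240. In NCI-H660 its score was 1097 with vehicle and 1087 with ORY-1001. It was therefore listed in 7 of 8 FOXA2 lists, all but LNCaP_FOXA2OE, and it was open in both lines, with H3K27ac in PC3 (score 996) and H3K4me2 in NCI-H660 (score 460). JUN was listed there in NCI-H660 with siNC (score 109) and in no other JUN list. With 8 of 18 factor lists it was the place with the most.

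The TTC6 intron site (chr14:38110290-38110715 in PC3) had scores of 789 in vehicle PC3 and 560 in vehicle NCI-H660, above 95% and 94.0% of their lists. The PC3 lists without an antibody label gave 2506 and 2232, the highest FOXA2 scores at any of the 3 loci. It was open in PC3 (ATAC score 707) and NCI-H660 (701) but overlapped no H3K27ac region in PC3, no H3K4me2 region in NCI-H660 and no JUN region. These 2 places were the sole ones shared by the vehicle lists. They are 2 of 9 PC3 members (22.2%, Wilson 6.32 to 54.7), beside 11.1% of the whole PC3 list also in NCI-H660, and 2 of 2 NCI-H660 members, beside 22.5% of that list also in PC3.

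The other PC3 vehicle regions at FOXA1 lay downstream. The region 6.4 kb downstream (score 370) covered the start of a long non-coding RNA gene, ENSG00000289903, just past the 3′ end of FOXA1, and was also in both PC3 lists without an antibody label (986 and 907) but in no NCI-H660 factor list. The region 28.1 kb downstream (score 156) covered the start of another, ENSG00000259087, inside MIPOL1, with JUN. The weakest, 14.9 kb downstream (score 20), ranked above only 0.562% of its list and was intergenic, also with JUN (score 241). Its window (chr14:38049468-38049667) was the sole one of the 9 with an AP-1 word, beside 26.3% of the list's windows.

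No vehicle FOXA2 region of the labelled antibody touched the 1 kb around the FOXA1 start site. The PC3 lists without an antibody label each had a region 0.2 kb upstream of it (scores 90 and 168) and another 1.3 kb and 1.2 kb downstream (236 and 146) that touched 24 and 36 coding bases of FOXA1. JUN was listed 0.8 kb upstream of that start site, where an exon of FOXA1 is still annotated, in NCI-H660 with siNC (score 204) and siFOXA2 (221), and in no PC3 or LNCaP list. The siFOXA2 region's 200-base window holds 2 AP-1 words, within 1 kb of the start of TTC6, which runs the other way. Of that list's windows, 4.98% held at least 1.
0.8 kb upstream place, first AP-1 word, chr14:38065108-38065134: ccgggtcatcTGAGTCAgccgagccaa
0.8 kb upstream place, next AP-1 word, chr14:38065205-38065231: taagagcaggTGAGTCAcagcaccggt

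**Figure D1:**
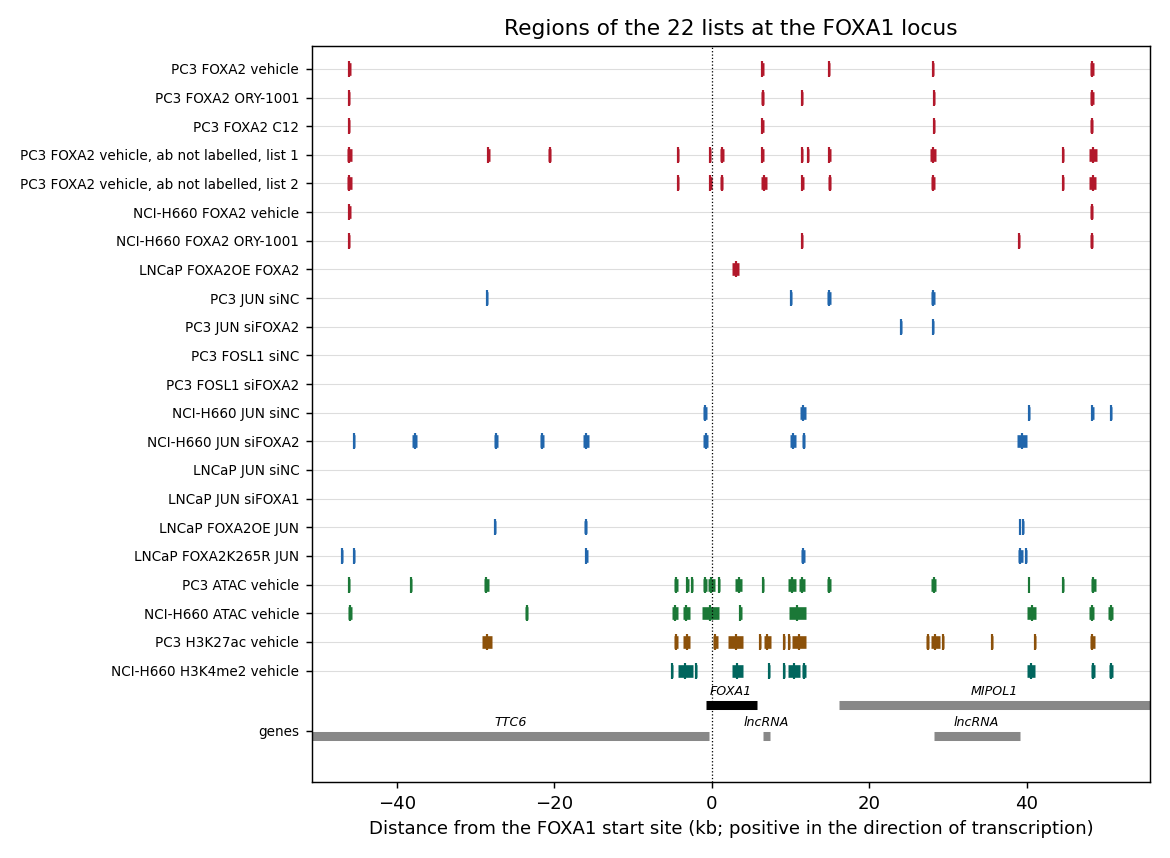
Regions of the 22 lists (rows) by distance from the FOXA1 start site in kb, positive in the direction of transcription, with genes below in grey and FOXA1 in black; bars are regions to scale, each with a tick at its centre so that narrow regions can be seen. FOXA2 of PC3 and NCI-H660 lines up 48.2 kb downstream and 46.0 kb upstream, and JUN of NCI-H660 siNC is the sole JUN row overlapping either. JUN of NCI-H660 siFOXA2 (45.5 kb upstream) and LNCaP FOXA2K265R (45.4 kb upstream) lies beside the upstream site without overlapping it.

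At the FOXA2 locus (chr20:22511636-22616093, minus strand) FOXA2 was listed in PC3 and not in the NCI-H660 or LNCaP_FOXA2OE lists. The PC3 vehicle list held 4 regions (Poisson interval 1.09 to 10.2), 38.3 per Mb, and 9.69% of protein-coding genes had at least 4. NCI-H660 held 0 with vehicle and 0 with ORY-1001, and a count of 0 allows up to 3.69 regions. Of all protein-coding genes, 62.4% had no NCI-H660 vehicle FOXA2 region within 50 kb. The FOXA2 start site was open in NCI-H660 (ATAC score 1073) as in PC3 (3159).

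The strongest site covered the start of LINC00261 (chr20:22559157-22559684), a long non-coding RNA gene next to FOXA2 that is known from definitive endoderm. Its FOXA2 score was 1099 in vehicle PC3, above 97.8% of the list, and 2037 and 1612 in the lists without an antibody label. The score was 676 with ORY-1001 and 604 with C12, above 95.9% and 95.8% of those lists. JUN was listed at the same place in PC3 with siNC (score 274) and not with siFOXA2. The H3K27ac region over it scored 3200, above 99.1% of that list. In NCI-H660 an ATAC region (score 79) and an H3K4me2 region (221) ended just short of that start. Both overlapped the PC3 FOXA2 site, as did a further H3K4me2 region (72) on its other side, and neither FOXA2 nor JUN was listed.

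The other PC3 vehicle regions lay upstream of FOXA2. A region 17 kb upstream (chr20:22582057-22582351, score 297) and another 8.9 kb upstream (score 144) were in introns of LNCNEF, another long non-coding RNA gene, and 1 more lay 40.3 kb upstream between genes (score 76). All 4 were in both PC3 lists without an antibody label, which held 7 and 6 regions at the locus. Neither LNCNEF window holds a forkhead or AP-1 word. At the FOXA2 start site itself, the lists with a factor region within 1 kb were PC3 JUN with siNC (0.1 kb downstream, score 76, above 20.2% of its list) and the PC3 FOXA2 list 2 without an antibody label (0.7 kb upstream, score 51). Neither FOXA2 nor JUN was listed there in NCI-H660 or LNCaP.

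**Figure D2:**
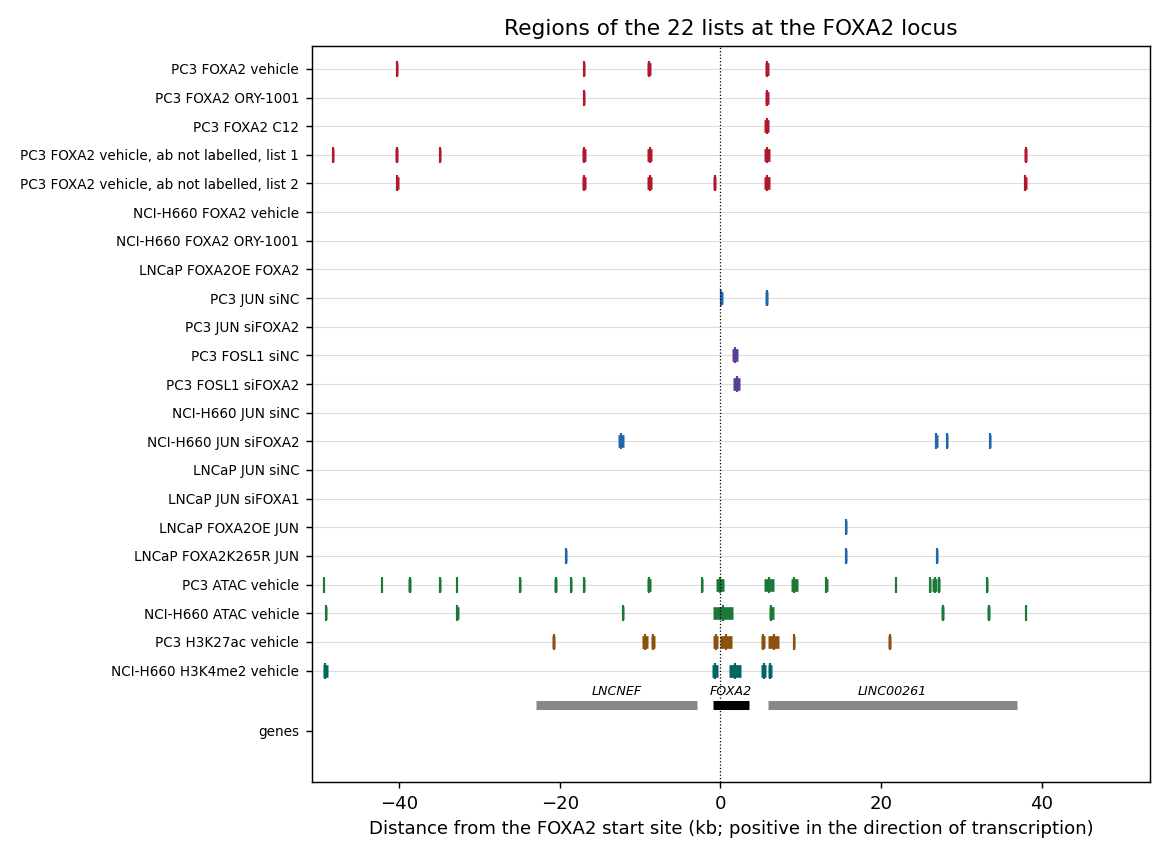
Regions of the 22 lists (rows) by distance from the FOXA2 start site in kb, positive in the direction of transcription, with genes below; bars are regions to scale with a tick at each centre. The 5 PC3 FOXA2 rows share the site 5.8 kb downstream at the start of LINC00261, and the NCI-H660 and LNCaP FOXA2 rows are empty.

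At the FOXA3 locus (chr19:46317247-46427055, plus strand) none of the 18 factor lists held a region. The nearest lay 93.2 kb before and 82.2 kb after the gene, both in PC3 FOXA2 list 1 without an antibody label, leaving 185 kb between them. Of 20136 protein-coding genes, 142 (0.705%) had no region of any factor list within 50 kb, and among the 41 other forkhead genes 1 had none, FOXR2. The window widens with gene length (109.8 kb for FOXA3), and genes of like length were not compared. The ATAC lists held 11 regions in PC3 and 4 in NCI-H660, with 5 H3K27ac regions in PC3 and 6 H3K4me2 regions in NCI-H660.

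Most of these regions lay at neighbouring genes. The PC3 ATAC region 1.1 kb upstream of FOXA3 (score 2614) and the H3K27ac region 1.6 kb upstream (1217) also covered the start of SYMPK, a gene of RNA 3′ end formation on the opposite strand. NCI-H660 had an ATAC region there (score 838), and a further one over the FOXA3 start site itself (score 58), where PC3 had none. H3K4me2 of NCI-H660 covered it as well (score 241). Among 13992 genes with an ATAC region within 1 kb of a start site in both lines, 17 (0.121%) had no factor region, FOXA3 and its neighbours IRF2BP1 and MYPOP among them. That last count was chosen after the FOXA3 values were seen.

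**Figure D3:**
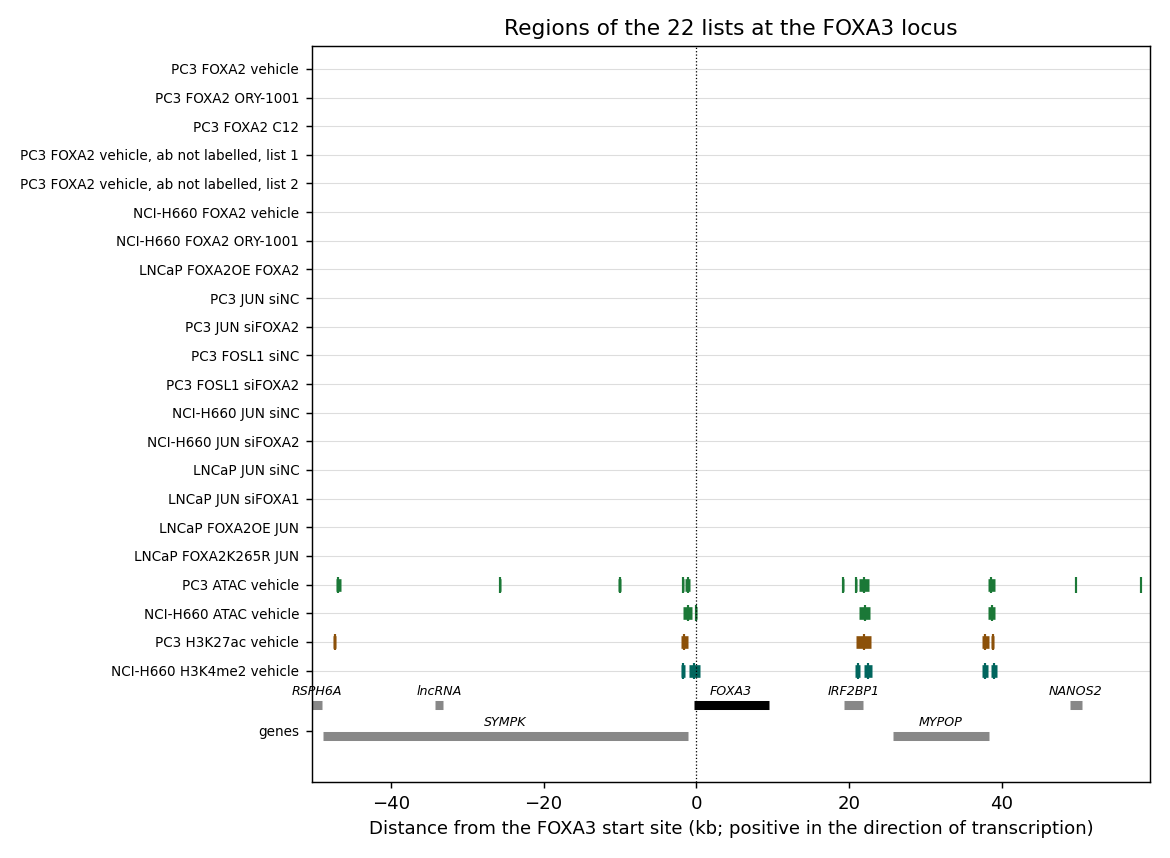
Regions of the 22 lists (rows) by distance from the FOXA3 start site in kb, positive in the direction of transcription, with genes below; bars are regions to scale with a tick at each centre. The 18 factor rows are empty, and the ATAC, H3K27ac and H3K4me2 rows hold regions at the starts of SYMPK, IRF2BP1 and MYPOP.

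The lists with an LSD1 inhibitor were compared with vehicle to ask where FOXA2 was still listed. Both PC3 inhibitor lists share the vehicle list. In PC3, 6 of 9 vehicle members (66.7%, Wilson 35.4 to 87.9) were still listed with ORY-1001, beside 36.8% of the whole vehicle list. With C12, at a different dose, 5 of 9 (55.6%, 26.7 to 81.1) were, beside 29.6%. Both intervals include the share of the whole list. In NCI-H660, 2 of 2 were kept with ORY-1001 (34.2% to 100%), beside 68.4%. At FOXA1, 4 of 5 PC3 members were kept with either agent, and at FOXA2 2 of 4 with ORY-1001 and 1 of 4 with C12.

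Whether a member was kept went with its vehicle score. Of the 3 members above 90% of the vehicle list, 3 were kept with each agent, and of the 3 below its median, 0 were. Between those bounds 3 of 3 were kept with ORY-1001 and 2 of 3 with C12, beside 50.2% and 40.4% of the list. Over the whole vehicle list, 83.7% of regions in the top class and 16.8% of those in the lower class were kept with ORY-1001, and 89.0% and 9.24% with C12. The lost members were those 14.9 kb downstream of FOXA1 and 8.9 kb and 40.3 kb upstream of FOXA2, and with C12 also the LNCNEF intron region 17 kb upstream of FOXA2. With C12 that region (vehicle score 297) was missing while the weaker one 28.1 kb downstream of FOXA1 (156) was still listed.

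Ranks are given within lists of 24038, 13732 and 8352 regions in PC3, so a change of rank at a place mixes the place with the make-up of its list. The TTC6 intron site was singled out after its values were seen, as the member with the lowest rank under ORY-1001 relative to vehicle. Its score was 789 with vehicle, 62 with ORY-1001 and 131 with C12, which stood above 95%, 38.2% and 55.3% of the 3 PC3 lists. Of the 8854 PC3 regions kept with ORY-1001, 2.34% changed rank as far downwards, and 17% of the 7125 kept with C12 did. With C12 the site 28.1 kb downstream of FOXA1 moved further, from above 51.3% to above 7.28% of its list, as far as 13.3% of kept regions. With ORY-1001 that site stood above 60.0%. In NCI-H660 the TTC6 site stood above 94.0% of the vehicle list and 94.4% of the ORY-1001 list. The MIPOL1 exon site stood above 91.0%, 95.1% and 80.8% of the 3 PC3 lists and the LINC00261 start above 97.8%, 95.9% and 95.8%. No repeat list under an inhibitor was there to set these ranks against, and the difference between the lines was not tested.

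Of the regions listed with ORY-1001, 6 of 7 members in PC3 and 2 of 4 in NCI-H660 were in the vehicle list, beside 64.4% and 70.9% of the whole lists. With C12, 5 of 5 were, beside 85.1%. A place 11.4 kb downstream of FOXA1 (chr14:38052888-38053143) was among those not in the vehicle list in both lines, with scores of 125 in PC3 and 144 in NCI-H660. It was also in the PC3 vehicle lists without an antibody label (56 and 105), was open in both lines, and carried JUN in 3 lists, NCI-H660 siNC (38), NCI-H660 siFOXA2 (46) and LNCaP_FOXA2K265R (37).

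**Figure D4:**
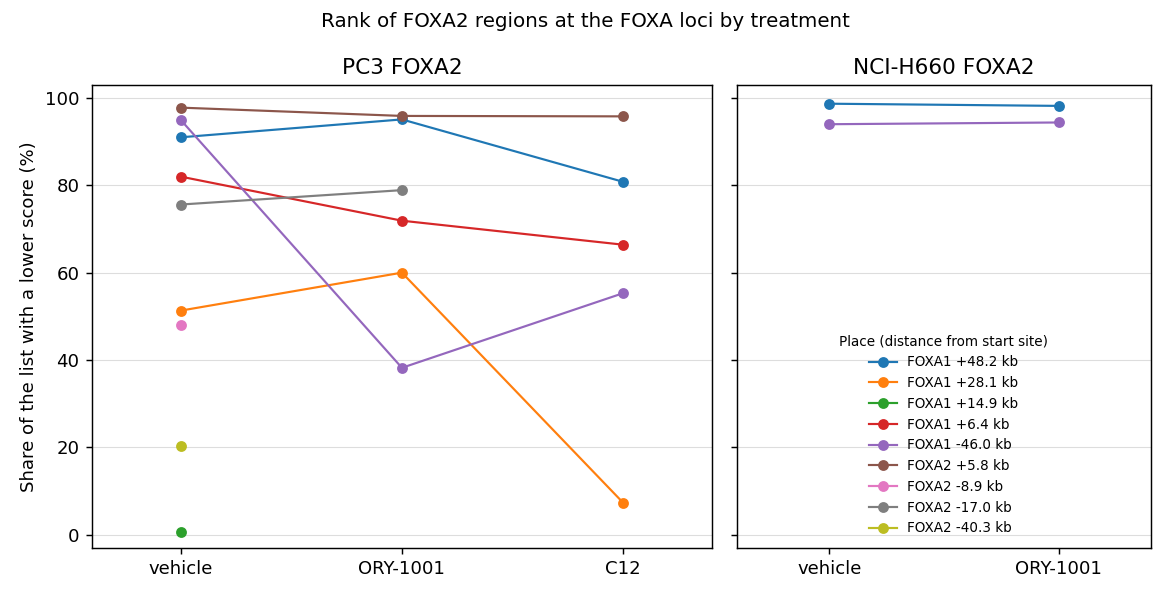
For each place with a vehicle FOXA2 region, the share of that list's regions with a lower score (percent), by treatment, in PC3 (left) and NCI-H660 (right); each line joins 1 place and a missing point means no region in that list. In PC3 the TTC6 site (FOXA1 -46.0 kb) goes from 95% to 38.2% and 55.3%, and in NCI-H660 it stays at 94.0% and 94.4%.

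JUN at the loci was compared between siNC and siFOXA2. In PC3, JUN was listed 4 times at FOXA1 and 2 times at FOXA2 with siNC, and 2 and 0 times with siFOXA2. Of the 6 siNC regions, 1 was kept (16.7%, Wilson 3.01 to 56.4), beside 13.4% of the whole list. The kept region was the one with FOXA2 28.1 kb downstream of FOXA1, whose JUN score was 331 with siNC and 45 with siFOXA2. The siNC regions at FOXA1 without FOXA2 of the labelled antibody, 28.5 kb upstream (score 325) and 10.0 kb downstream (255), were both absent with siFOXA2, as were those 14.9 kb downstream of FOXA1, at the LINC00261 start and at the FOXA2 start site. The siFOXA2 list held 4081 regions against 23890.

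In NCI-H660 the numbers were higher with siFOXA2, 5 at FOXA1 and 0 at FOXA2 with siNC and 9 and 4 with siFOXA2. Of the 5 siNC regions, 2 were kept (40.0%, 11.8 to 76.9), beside 48.0% of the whole list: the region 0.8 kb upstream of the FOXA1 start site and the one 11.5 kb downstream. The siNC regions in MIPOL1 at 48.3 kb (score 109), 50.7 kb (97) and 40.3 kb (27) downstream, all open, were not listed with siFOXA2. The siFOXA2 list held 59452 regions against 18401. Its median score was 39.0 and 4.98% of its windows held an AP-1 word, against 78.0 and 13.8% with siNC. Of the 13 siFOXA2 members, 5 were in open chromatin (38.5%), beside 31.5% of the whole siFOXA2 list, whereas 5 of 5 siNC members and 86.0% of the siNC list were. The 11 siFOXA2 members not in the siNC list had scores of 28 to 69, and 0 of them overlapped a vehicle FOXA2 region of either line, beside 1.88% of the 50633 such regions in the whole list. How the composition of the siFOXA2 list bears on the 13 members was not tested.

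In PC3, 3 of 9 vehicle FOXA2 members overlapped a siNC JUN region (33.3%, Wilson 12.1 to 64.6), beside 44.3% of the whole FOXA2 list: the LINC00261 start and the places 28.1 kb and 14.9 kb downstream of FOXA1. In NCI-H660 1 of 2 did, the MIPOL1 exon site, beside 36.4%. The 200-base windows at the centres of the 6 PC3 siNC JUN regions held 0 AP-1 words. Of that list's windows, 49.4% held at least 1. The AP-1 word of the FOXA2 window 14.9 kb downstream of FOXA1 lies inside the JUN region there but outside its 200-base window. A forkhead word stood in 2 of the 6 JUN windows, beside 43.3% of the list. Of the 9 PC3 FOXA2 windows 6 held a forkhead word, beside 77.2%.

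**Figure D5:**
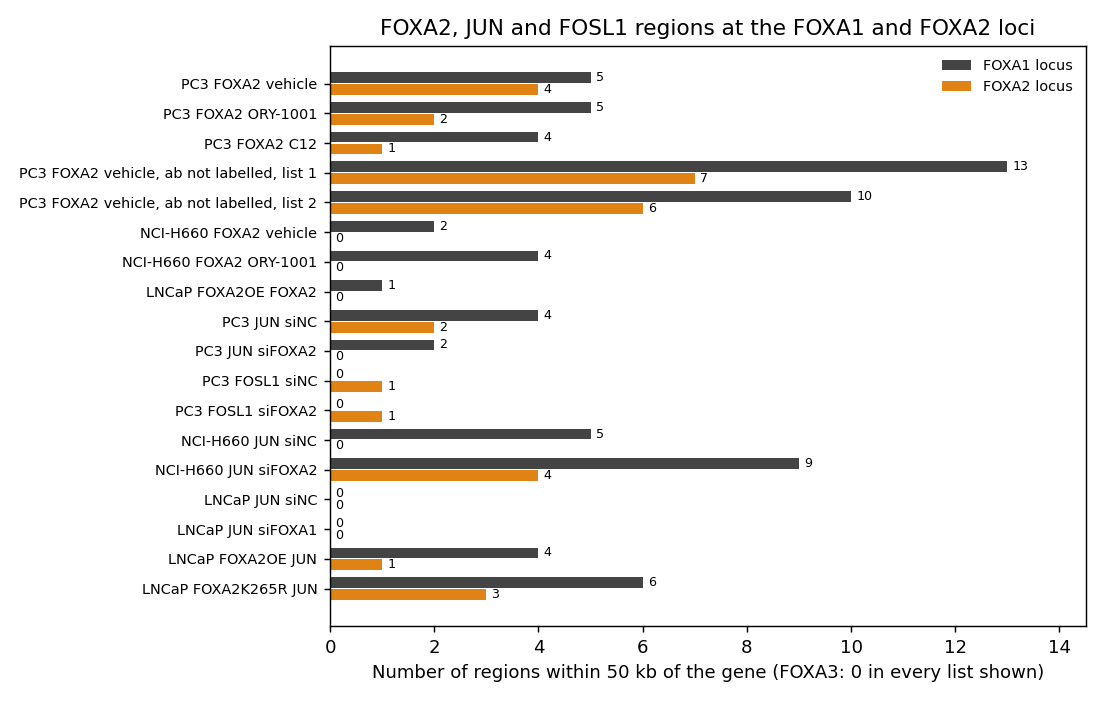
Number of regions within 50 kb of FOXA1 (grey) and FOXA2 (orange) in each of the 18 factor lists, each bar being the count in 1 list without replicate. JUN counts with siFOXA2 are below siNC in PC3 and above it in NCI-H660, and LNCaP JUN is at 0 with siNC and siFOXA1.

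In LNCaP, JUN was listed at none of the loci with siNC or siFOXA1 (0 regions each, which allows up to 3.69), in 5 regions in the FOXA2OE line and in 9 in the FOXA2K265R line. Of all protein-coding genes, 79.6% and 85.1% had a JUN region within 50 kb in the latter lists. These lists also differed in size, with 2421, 1964, 23994 and 47505 regions, and lowest scores of 30 and 23 in the FOXA2OE and FOXA2K265R lists against 13 with siFOXA1. Region names place the siRNA lists in 1 folder and the FOXA2OE and FOXA2K265R lists in 2 others, 1 each. What a folder stands for is not stated, and line and folder cannot be told apart, also between FOXA2OE and FOXA2K265R. The highest scores at FOXA1 were 64 in the FOXA2OE list (at 16.0 kb and 27.6 kb upstream) and 89 in the FOXA2K265R list (47.0 kb upstream), and at FOXA2 43 and 89 (15.6 kb downstream and 19.3 kb upstream). Of the 5 FOXA2OE members 4 overlapped a FOXA2K265R region (80.0%, 37.6 to 96.4), beside 37.0% of the whole list. Those 39.5 kb and 39.1 kb downstream of FOXA1 overlapped the same FOXA2K265R region, although the interval counts them as separate. None of the 14 windows held a forkhead or AP-1 word, in lists where 6.36% and 10.3% of windows held a forkhead word. An AP-1 word stood in 2.38% and 4.07% of the FOXA2OE and FOXA2K265R windows, against 25.4% in the LNCaP siNC JUN list.

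Of the 5 LNCaP_FOXA2OE JUN members, 0 overlapped a vehicle FOXA2 region of PC3 or NCI-H660, beside 2.39% of the whole list. The LNCaP_FOXA2OE FOXA2 list itself, of exactly 2500 regions, had 1 member, within the large coding exon of FOXA1 (chr14:38061035-38061880). FOXA2 regions were not listed in this exon in any other list, although it was open in PC3 (ATAC score 1872). All 846 bases of that region were coding, as for 0.480% of its list, and 1.32% of the list touched a coding exon of any gene.

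Coding exons of FOXA2 were examined because reads of a FOXA2 coding transgene, as in the LNCaP lines, map there. The study also made PC3 lines with such a transgene, but the titles of the PC3 lists used here name none. Whether such reads bear on any region here was not tested. None of the 8 FOXA2 lists and no JUN list had a region over them. The factor lists that did were PC3 FOSL1 with siNC (chr20:22563040-22563744, score 60) and with siFOXA2 (chr20:22562776-22563597, score 106), both wholly inside the exon of 1302 bases (chr20:22562491-22563792). These were the sole FOSL1 members at any locus. The region was kept under siFOXA2, beside 6.90% of the whole FOSL1 siNC list. Wholly coding regions made up 0.364% and 0.390% of the 2 lists, and regions touching a coding exon 2.50% and 1.89%. In PC3 neither FOSL1 region overlapped an ATAC region, and the edge of an H3K27ac region (score 2170) touched the siNC one. The siFOXA2 list had a median score of 17 and AP-1 words in 2.41% of its windows, against 78.0 and 35.0% with siNC.

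Open chromatin was compared between the lines. Over the 3 loci, PC3 had 49 ATAC regions and NCI-H660 22, of which 30 and 7 had no counterpart in the other line. The whole lists also differed in length, with 210960 regions in PC3 and 99959 in NCI-H660. At FOXA2, 16 of 20 PC3 regions had none, at FOXA1 7 of 18 and at FOXA3 7 of 11. The shared part at FOXA2 (20.0%) was near that of the whole PC3 list (21.5%). Over the loci, 19 of 49 PC3 regions (38.8%, Wilson 26.4 to 52.8) were shared, beside 21.5% of the whole list, and 15 of 22 NCI-H660 regions (68.2%, 47.3 to 83.6), beside 41.2%. The FOXA1 and FOXA2 start sites and the MIPOL1, TTC6 and LINC00261 places were open in both. At FOXA2, the ATAC regions at both LNCNEF sites were in PC3 alone. A region 38.0 kb downstream was in NCI-H660 alone, although FOXA2 was listed there in the PC3 lists without an antibody label (scores 181 and 175).

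Of the 9 PC3 vehicle FOXA2 members 8 were in open chromatin (88.9%), beside 89.3% of the list, the exception being that 40.3 kb upstream of FOXA2. Both NCI-H660 members were, beside 90.9%. H3K27ac overlapped 5 of the 9 in PC3 (55.6%), beside 58.7%, and H3K4me2 1 of 2 in NCI-H660, beside 62.7%. In PC3 the members' share was near that of the list in both. The 2 NCI-H660 members are too few to judge, with Wilson intervals of 34.2% to 100% for open chromatin and 9.45% to 90.5% for H3K4me2.

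Among the other 41 forkhead genes, 19 had a PC3 vehicle FOXA2 region within 50 kb and 16 an NCI-H660 one (46.3% and 39.0%), beside 54.1% and 37.6% of all protein-coding genes. FOXP1, with 25 regions in PC3, and FOXN3, with 8, were the ones with at least as many as FOXA1, and both are long genes with a wider window. Of 23 genes of partner factors and enzymes, 12 and 14 had a region (52.2% and 60.9%), and GRHL2, of an epithelial factor, had 8 in PC3 and 7 in NCI-H660. For siNC JUN, regions were found at 62.8% of all genes in PC3 and 66.3% in NCI-H660, and at 20 and 28 of the 41 forkhead genes.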

How the data were processed

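Lists of enriched regions from ChIP-seq and ATAC-seq of PC3, NCI-H660 and LNCaP cells were used. Per the study's methods and the submitters' processing notes, the authors mapped reads to hg19 with BWA 0.7.17-r1188, handled alignments with SAMtools 1.9 and called regions with MACS2 2.1.4. FastQC 0.11.9 is also named. The deposited score column was read as 10 times −log10 q, which no source used here states, and 2 lists gave coordinates alone. Members, gene lists and comparisons were chosen with earlier results of these data known. Regions overlapping a gene body or 50 kb on either side (GENCODE release 44 on hg19) were taken with Python 3.11, and regions sharing at least 1 bp were taken to overlap. A place is the union of overlapping FOXA2, JUN and FOSL1 regions. Named regions were those within 1 kb of a FOXA start site, the 3 highest-scoring per locus in the vehicle FOXA2, siNC JUN and LNCaP FOXA2OE and FOXA2K265R JUN lists, those in both lines, those kept under an inhibitor and the highest-scoring lost, and those over FOXA coding exons. Other regions were named after their values were seen. Shares have Wilson and counts exact Poisson intervals of 95%. Motif words were sought in 200-base windows. The overlap code was tested on simulated data. Other windows (10 and 100 kb), a score of at least 50, an overlap of 50%, equal list sizes and other lists were tried. No fit or p-value was possible with 1 list per group.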

Additional observations from a re-analysis of the deposited data

Results flagged for a closer look

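JUN numbers at the FOXA genes moved in opposite directions under siFOXA2 in the 2 lines: by -4 in PC3 (6 regions with siNC and 2 with siFOXA2) and by 8 in NCI-H660 (5 and 13). The difference was not tested, since each arm had 1 list. At FOXA1 the numbers were 4 and 2 in PC3 and 5 and 9 in NCI-H660, and at FOXA2 2 and 0, and 0 and 4. The whole lists moved the same way, from 23890 to 4081 regions in PC3 and from 18401 to 59452 in NCI-H660.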

How the results depend on the processing

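Of 88 alternative values over the results, 69 stayed within 1.5 times the reported count or within the interval of the reported share, and 19 moved. With so few members the intervals are wide: the share of FOXA2 with JUN went from 50% to 16.7% in NCI-H660 with 100 kb and from 33.3% to 20.0% and 18.8% in PC3 with the lists without an antibody label, and JUN kept in NCI-H660 from 40.0% to 20.0% with equal numbers of regions. With a window of 10 kb, FOXA2 regions at FOXA1 and FOXA2 in PC3 were 2 and 2, at FOXA1 in NCI-H660 0, JUN regions in LNCaP FOXA2OE and FOXA2K265R 0 and 1, JUN kept under siFOXA2 0% in PC3 and 100% in NCI-H660, and places open in 1 line only 10. With 100 kb, FOXA2 regions were 7 at FOXA2 in PC3, 4 at FOXA1 and 2 at FOXA2 in NCI-H660, JUN with siFOXA1 in LNCaP 1, and places open in 1 line only 71. In the PC3 lists without an antibody label, FOXA2 regions were 13 and 10 at FOXA1 and, in list 1, 7 at FOXA2. With a score of at least 50, JUN in LNCaP FOXA2OE was 3 and JUN kept in PC3 0%. With an overlap of at least 50% of both regions, 59 places were open in 1 line only, against 37 with an overlap of 1 bp. The smaller windows hold fewer regions by construction. No place at the loci was in 17 or more lists, so leaving such places out could change nothing, yet these alternatives count among the 69. The score alternative could not be run for LNCaP siNC, nor NCI-H660 FOXA2 shares with 10 kb, where no region was left. JUN kept under siFOXA2 in PC3 could not be compared at equal numbers of regions either. None of its siNC members was among the 4081 highest-scoring regions. No paired analysis was possible because each group compared had 1 list. Depth is unknown, so for a region missing from a list, absence and lack of detection cannot be told apart.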

Other observations

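The place 39.4 kb downstream of FOXA1, in an intron of MIPOL1, held JUN in NCI-H660 siFOXA2 (score 49), LNCaP FOXA2OE (63) and FOXA2K265R (57). FOXA2 was listed there in NCI-H660 with ORY-1001 (32). An H3K4me2 region of NCI-H660 reached only the edge of this place. No ATAC region of either line overlapped it, and an NCI-H660 ATAC region ended just short of it. A place 16.0 kb upstream of FOXA1, in an untranslated exon of TTC6, held JUN in the same 3 JUN lists (60, 64 and 62) and no other list. Of 42 places at the loci, 17 were in 1 factor list alone.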
